A study of Mus musculus with 4 samples.

Results

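GDNF and endothelin 3 are the main secreted signals that reach neural crest cells as they enter the gut wall, and 8 genes of these signals were followed in the mouse embryonic intestine at E12.5. The ligand genes were Gdnf, Nrtn and Edn3, the enzyme gene was Ece1, and the receptor genes were Gfra1, Gfra2, Ret and Ednrb. They were listed by name for their known roles, by a rule that uses no measured value but was drawn up with earlier results of these data known, and all 8 were found among the 28692 genes listed for each library.

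The samples were 2 single-cell RNA libraries of the small intestine (SI) and 2 of the large intestine, cecum included (LI). They came from untreated embryos of the strain labelled EYFP (C57BL/6), which carries enhanced yellow fluorescent protein. The study made its EYFP mice by crossing a reporter line with Cre mice, and neither the Cre driver nor the mating is given for these libraries. The paper describes its E12.5 colon data as 2 experiments, each with several embryonic colons. It does not say this of the SI libraries. The labels give a sort of live cells as YFP+ and integrin β1+, and as negative for CD45, Ter119, CD31 and EpCAM. Leukocytes, erythroid cells, endothelium and epithelium were thus to be left out, and neural cells were kept only as far as they passed these gates. The paper gives the YFP+ sort for intestinal grafts, and for the E12.5 colon cells it names integrin β1. Region is therefore the comparison, and stage, strain, reporter and sort were common to both regions.

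The libraries held 5151 to 6881 cell barcodes and 31630548 to 62886525 unique molecular identifiers (UMIs, each a captured transcript). After filtering, 22094 cells remained, 10709 of LI and 11385 of SI. LI replicate 1 was the shallowest, its kept cells having a median depth of 4219.5 UMIs against 8384 to 8834 in SI and 8760 in LI replicate 2. Pairs of libraries had 8 to 15 barcodes in common, at most 0.221% of the smaller library.

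Cells were clustered on other genes, with the 8 genes left out, and 5 classes were named from marker lists. Fibroblast-like cells (FB-like, 8002 cells) had 10 of 12 FB markers in at least 10% of cells and no UMI of Dpt. They also had 10 of 12 SMC markers, and SMC-like cells, cluster 4 and cluster 3 had 10, 10 and 11 of the FB markers, so FB-like here means stroma with no marker of another class among its leading genes. Smooth muscle-like cells (SMC-like, 6376 cells) had 12 of 12 SMC markers, with Myh11, Cnn1 and Actg2 in the lead. Mesothelial-like cells (1318 cells) were led by Upk3b, Krt19 and Krt7 and had 10 of 12 markers. Progenitor-like cells (953 cells) were led by Foxd3 and Sox10, and 59.2 to 87.5% of them per library had a Sox10 UMI. Neuron-like cells (286 cells) had 14 of 14 neuron markers, and 85.7 to 97.7% of them had a Stmn2 UMI. Of 5 further clusters that stayed unnamed, 2 were tested and are given by number: cluster 3 (1981 cells, led by Adamdec1 and Bmp3) and cluster 4 (1399 cells, led by Anxa2 and Wnt4). The others, given as levels only, were cluster 6 (1225 cells, led by Hist1h2bc and Epcam), cluster 8 (379 cells, led by Foxd1 and Shisa3) and cluster 10 (175 cells, led by Pf4 and Afp). Levels are in CPM, the UMIs of a gene per 1000000 UMIs of that class in that library, and each pair of values for a region is replicate 1 and then replicate 2. The 12 FB markers summed to 1061 and 1659 CPM in LI FB-like cells and 1255 and 1673 CPM in SI ones. In every library this was below the sums of SMC-like and mesothelial-like cells and of clusters 3 and 4. SMC-like cells had 1155 and 1878 CPM in LI and 1339 and 1771 CPM in SI. Cluster 4 had 1868 and 2513 CPM in LI and 2064 and 3121 CPM in SI.

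GDNF and its relative neurturin bind GFRα1 and GFRα2, coreceptors held to the membrane by a lipid anchor, and the complex switches on the receptor tyrosine kinase RET. Endothelin 3 is made as a longer precursor, cut by endothelin-converting enzyme 1 (ECE1), and acts on the G protein-coupled receptor EDNRB. In the gut these signals keep enteric progenitors dividing and guide them along the bowel, and loss of RET or of EDNRB signalling leaves the distal bowel without ganglia, as in Hirschsprung disease.

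The cut that ECE1 makes falls after a tryptophan that the 3 endothelins share, and the coding sequence of each active peptide is shown because Edn1 and Edn2 appear beside Edn3 in the mesothelial-like values. Sequences are from GENCODE vM21 transcripts on GRCm38, 5′ to 3′ on the coding strand, with the tryptophan codon in capitals.
Edn3: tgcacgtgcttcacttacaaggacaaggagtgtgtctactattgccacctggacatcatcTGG
Edn1: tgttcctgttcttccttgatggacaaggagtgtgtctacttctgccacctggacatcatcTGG
Edn2: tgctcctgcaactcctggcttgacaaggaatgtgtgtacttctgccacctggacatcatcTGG
The Edn3 stretch lies at chr2:174761749-174761811 on the plus strand, in exon 2 of 5. Edn1 (chr13:42303649-42303711) matched it at 50 of 63 bases, and Edn2 (chr4:120161951-120162013) at 48 of 63 bases.

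The promoters of Edn3 and Gdnf are shown because both ligands had lower levels in SI than in LI in several classes. Each is the 250 bases before a RefSeq start on GRCm38.p6, and none of these bases lies in an exon.
Edn3: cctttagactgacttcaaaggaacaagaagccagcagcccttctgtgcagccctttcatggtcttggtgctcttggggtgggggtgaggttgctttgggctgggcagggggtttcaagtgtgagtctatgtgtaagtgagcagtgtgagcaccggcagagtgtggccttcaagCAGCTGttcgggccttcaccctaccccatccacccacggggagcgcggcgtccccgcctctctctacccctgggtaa
Gdnf: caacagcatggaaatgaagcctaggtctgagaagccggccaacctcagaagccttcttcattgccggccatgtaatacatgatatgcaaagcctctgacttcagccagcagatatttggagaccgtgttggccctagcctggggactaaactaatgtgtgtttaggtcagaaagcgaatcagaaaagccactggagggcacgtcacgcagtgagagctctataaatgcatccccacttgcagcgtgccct
The Edn3 window is chr2:174760369-174760618 and the Gdnf window shown is chr15:7809798-7810047, both on the plus strand. Gdnf has a further RefSeq start, with the window chr15:7813477-7813726, which is not printed. The capitals mark the E box CAGCTG, found once in the Edn3 window and in neither Gdnf window, and in 13.0% of 32817 promoter windows of the same length on both strands. It was not particular to Edn3, since windows of Nrtn, Ece1 and Gfra1 held it too. The posterior HOX motif CAATAAA, found in 4.2% of promoters, was in none of the 10 promoter windows of 6 of the 8 genes. The SOX motif ACAANG, found in 36.3% of promoters, was in 1 of these 10 windows, at an Ece1 start. These are matches of letters only.

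Gdnf, on chromosome 15 (7810846 to 7837575, plus strand), was a stromal transcript in both regions. In FB-like cells its level was 72.8 and 82.2 CPM in LI and 33.4 and 49.8 CPM in SI. In SMC-like cells it was 83.1 and 76.7 CPM in LI and 55.4 and 67.9 CPM in SI. The mesothelial-like level was 69.2 and 74.9 CPM in LI and 22.3 and 15.9 CPM in SI. Both LI libraries lay above both SI libraries in each of the 3 classes, and the gap was widest in mesothelial-like cells. Progenitor-like cells held 0, 3, 1 and 3 Gdnf UMIs in the 4 libraries and neuron-like cells 7 UMIs in all.

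The region difference of Gdnf passed the test in mesothelial-like cells, and in FB-like cells the call depended on the fit. In mesothelial-like cells Gdnf was 3.53-fold lower in SI (log2 difference −1.82 ± 0.26 SE, edgeR quasi-likelihood test, Benjamini-Hochberg adjusted p = 0.0062, 2 libraries a region), and this held in 10 of 10 alternatives. It was the only one of the 4 genes testable in these cells that passed, where 1.10% of 10653 genes did. In FB-like cells the log2 difference was −0.75 ± 0.22 (edgeR adjusted p = 0.10) and in SMC-like cells −0.21 ± 0.18 (edgeR adjusted p = 0.65). The FB-like difference of Gdnf passed in 5 of 12 alternatives, in edgeR without LI replicate 1 (adjusted p = 0.0028), LI replicate 2 (adjusted p = 0.012) or SI replicate 2 (log2 −1.04, adjusted p = 0.048), with no filter on low counts (adjusted p = 0.012) and with the replicate block (adjusted p = 0.00025), and it was log2 −0.49 without SI replicate 1 (adjusted p = 0.70). The difference between the mesothelial-like and FB-like region effects was itself past the threshold (log2 −1.01 ± 0.24, edgeR adjusted p = 0.026, in a fit where 2.38% of 12978 genes passed). That call was lost without SI replicate 2 (−0.58, edgeR adjusted p = 0.45), without LI replicate 1 (adjusted p = 0.18), without LI replicate 2 (adjusted p = 0.056) and in DESeq2 (adjusted p = 0.26). Without SI replicate 1 the difference was −1.63 (edgeR adjusted p = 0.0030).

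Per cell, a Gdnf UMI was found in 17.0 and 19.7% of LI mesothelial-like cells and in 6.25 and 2.96% of SI ones after each cell was thinned to 3000 UMIs. Their 95% Wilson intervals ran from 14.2 to 20.3% and 15.02 to 25.3% in LI and from 3.88 to 9.91% and 1.27 to 6.74% in SI, and cover counting error only. Before thinning the shares were 23.1 and 41.5% in LI and 14.8 and 11.1% in SI, and at 2000 UMIs they were 11.2 and 13.6% in LI and 3.37 and 5.85% in SI, so the order of the SI libraries is not set by these shares. In progenitor-like cells, where 3 libraries had no thinned cell with a Gdnf UMI, a count of 0 (3 counts of the total) allows a share of up to 1.79% of cells with a UMI in LI replicate 1. The mesothelial-like class held 640 and 236 cells in LI and 270 and 172 in SI, and its own marker sum was 2383 and 2598 CPM in LI and 2568 and 2658 CPM in SI. SMC markers in these cells summed to 974 and 631 CPM in LI and 455 and 518 CPM in SI, with 4 of 12 in at least 10% of cells. Their part in the Gdnf difference was not tested.

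**Figure D1:**
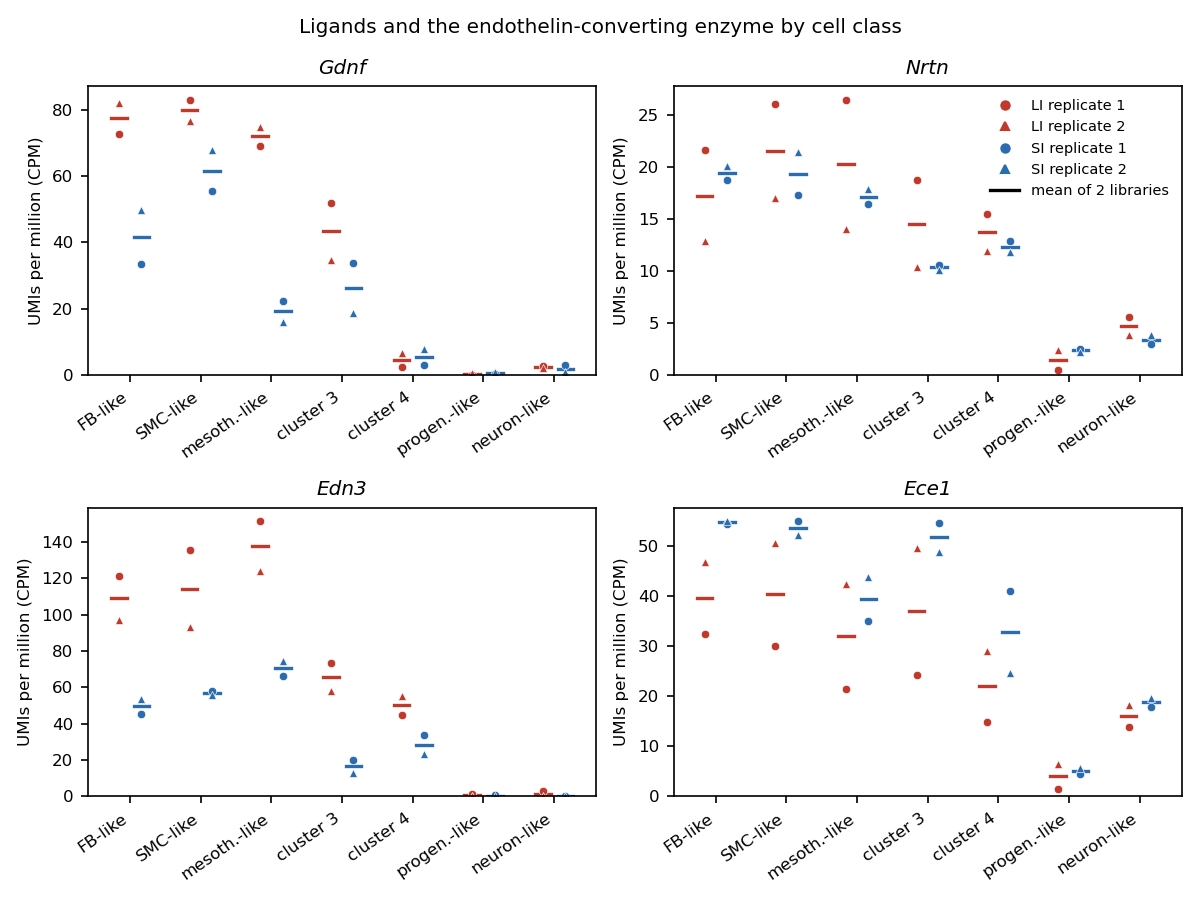
Levels of Gdnf, Nrtn, Edn3 and Ece1 in CPM (y axes) by class (x axes), with 1 point for each library and a bar at the mean of the 2 libraries of a region. For Gdnf and Edn3 the LI points lie above the SI points in FB-like, SMC-like and mesothelial-like cells, while the Nrtn points of the regions overlap in all 3.

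Edn3, on chromosome 2 (174760619 to 174784042, plus strand), followed a like order of regions in every stromal class. Its level in FB-like cells was 121 and 97.0 CPM in LI and 45.4 and 53.5 CPM in SI. In SMC-like cells it was 135 and 93.0 CPM in LI and 57.8 and 55.5 CPM in SI. Mesothelial-like cells had 151 and 124 CPM in LI and 66.1 and 74.6 CPM in SI. The LI libraries stood above the SI libraries throughout, also in cluster 3 (73.5 and 57.9 against 20.2 and 13.0 CPM) and in cluster 4 (44.9 and 55.2 against 33.5 and 23.3 CPM).

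In FB-like cells Edn3 was 1.99-fold lower in SI (log2 difference −0.99 ± 0.20, edgeR adjusted p = 0.023), and 3 of the 8 genes passed there against 3.75% of 13222 genes. The call was lost without SI replicate 1 (log2 −0.89, edgeR adjusted p = 0.10). In cluster 3 Edn3 was 3.63-fold lower in SI (log2 −1.86 ± 0.28, edgeR adjusted p = 0.010), which held in 10 of 10 alternatives, and 2 of the 6 genes testable there passed against 2.82% of 11210 genes. The log2 difference was −0.85 ± 0.22 in SMC-like cells (edgeR adjusted p = 0.11), −0.91 ± 0.22 in mesothelial-like cells (edgeR adjusted p = 0.083) and −0.78 ± 0.26 in cluster 4 (edgeR adjusted p = 0.48). In the SMC-like class 1 of 7 testable genes passed against 2.72% of 12629 genes, and in cluster 4 none of 7 passed against 0.533% of 10696. The region effect on Edn3 was not shown to differ between SMC-like and FB-like cells (log2 0.15 ± 0.15) or between mesothelial-like and FB-like cells (log2 0.09 ± 0.18), with edgeR adjusted p of 1.0 and 0.88. The Edn3 difference passed in 4 of 10 alternatives in SMC-like cells and in 5 of 10 in mesothelial-like cells. Without LI replicate 2 it was log2 −1.10 in SMC-like cells and log2 −1.09 in mesothelial-like cells.

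Mesothelial markers had the same order of regions as Edn3 in these cells. The 12 markers summed to 149 and 61.9 CPM in LI and to 49.3 and 27.0 CPM in SI in FB-like cells, and to 117 and 45.2 CPM in LI and to 24.1 and 10.3 CPM in SI in SMC-like cells. In cluster 3 they summed to 53.9 and 12.4 CPM in LI and to 7.93 and 1.54 CPM in SI. Msln had no UMI in any of the 3, and in mesothelial-like cells themselves the sum was 2383 to 2658 CPM. The part of these transcripts in the Edn3 differences was not tested.

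Within the FB-like class both of its clusters had the same order of regions. In cluster 1, led by Scx and Cdh13, Edn3 was at 142 and 108 CPM in LI and 49.9 and 58.9 CPM in SI. In cluster 2, led by S-phase histone genes, it was at 91.7 and 77.7 CPM in LI and 41.2 and 45.0 CPM in SI. Gdnf too was higher in LI in each, with 80.4 and 91.3 against 26.7 and 51.3 CPM in cluster 1 and 61.7 and 66.9 against 39.7 and 47.5 CPM in cluster 2. These cluster levels carry no test of region.

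Between classes, the Edn3 level of mesothelial-like cells was above that of FB-like cells by log2 0.43 ± 0.11 (edgeR adjusted p = 0.0050), in a comparison where 39.5% of 12329 genes passed. The call was lost without SI replicate 1 (edgeR adjusted p = 0.056) and when library was not kept as a block (adjusted p = 0.40). Gdnf was lower in mesothelial-like than in SMC-like cells (log2 −0.70 ± 0.21, edgeR adjusted p = 0.013, where 38.9% of genes passed), a call lost without SI replicate 1 (adjusted p = 0.12), without SI replicate 2 (adjusted p = 0.079) and with no library block (adjusted p = 0.22). Neither Gdnf (log2 0.34, edgeR adjusted p = 0.30) nor Edn3 (log2 0.12, edgeR adjusted p = 0.55) passed between SMC-like and FB-like cells, a comparison in which 10.1% of genes passed. With clusters 3 and 4 counted as FB-like both did (log2 0.64 for Gdnf and 0.39 for Edn3, edgeR adjusted p = 0.024 for each).

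Clusters 3 and 4 held less of both ligands than FB-like cells. In cluster 4 Gdnf was at 2.22 and 6.71 CPM in LI and 2.82 and 7.85 CPM in SI, 9.94-fold below FB-like cells (log2 −3.31 ± 0.33, edgeR adjusted p = 1.1e-07), where 20.6% of 12542 genes passed. Edn3 was lower there too (log2 −0.95, edgeR adjusted p = 0.00049). In cluster 3, where 19.5% of genes passed, Edn3 was lower by log2 1.06 (edgeR adjusted p = 0.00010) and Gdnf by log2 0.73 (edgeR adjusted p = 0.030). With no library block the Gdnf call of cluster 4 was kept and the other 3 were lost (adjusted p = 0.16 for Edn3 in cluster 4, adjusted p = 0.20 for Edn3 and adjusted p = 0.25 for Gdnf in cluster 3). The cluster 3 call of Gdnf was also lost without LI replicate 2 (adjusted p = 0.22), without SI replicate 2 (adjusted p = 0.12) and in DESeq2 (adjusted p = 0.17).

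**Figure D2:**
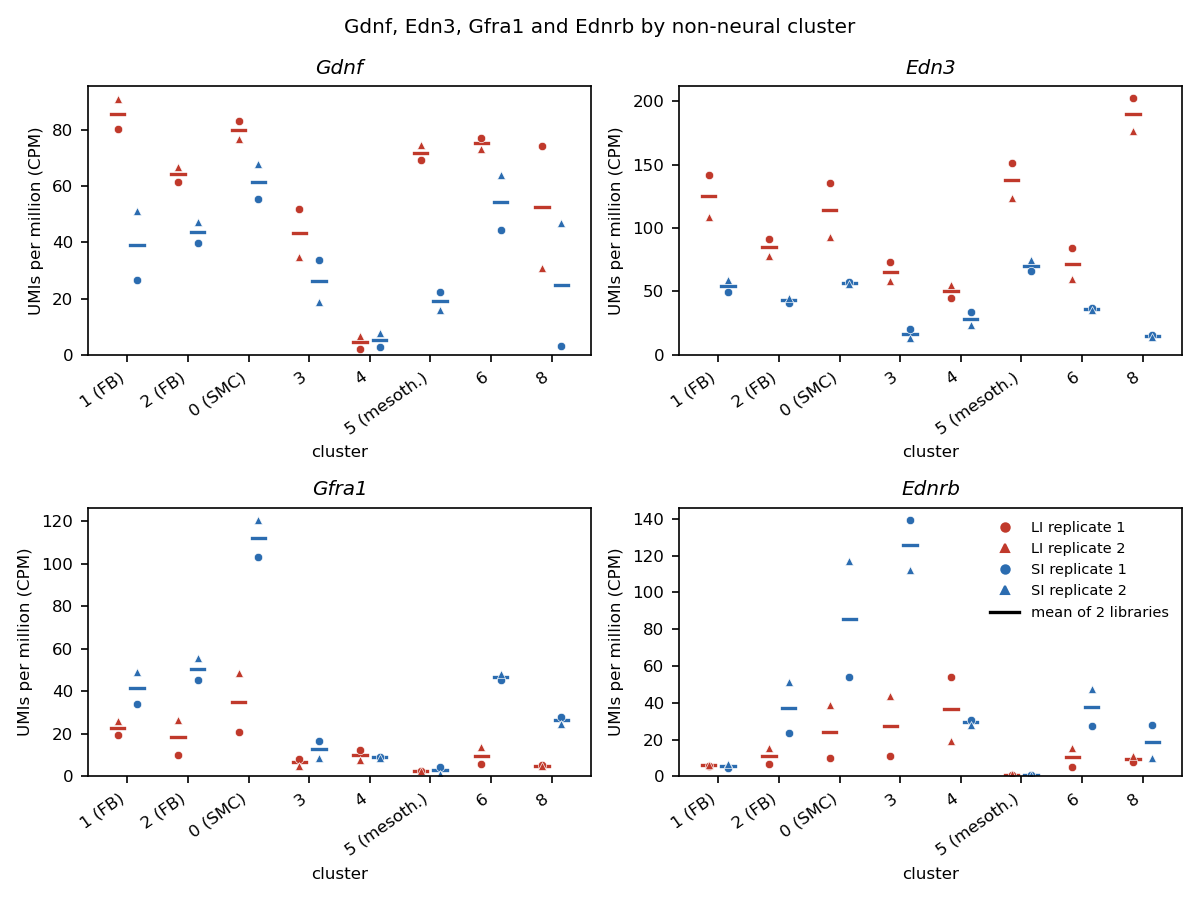
Levels of Gdnf, Edn3, Gfra1 and Ednrb in CPM by non-neural cluster, with 1 point for each library and a bar at the mean of the 2 libraries of a region. Gdnf of cluster 4 lies between 2.22 and 7.85 CPM, Edn3 of LI lies above that of SI in clusters 0 to 6 and 8, and Ednrb of cluster 1 stays between 4.36 and 6.54 CPM in all 4 libraries.

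Nrtn (chromosome 17, 56751325 to 56757530, minus strand) encodes neurturin, the ligand that prefers GFRα2. Its level in FB-like cells was 21.6 and 12.9 CPM in LI and 18.8 and 20.1 CPM in SI. In SMC-like cells it was 26.1 and 17.0 CPM in LI and 17.3 and 21.4 CPM in SI, while mesothelial-like cells had 26.5 and 14.0 CPM in LI and 16.4 and 17.9 CPM in SI. LI replicate 1 was the highest and LI replicate 2 the lowest library in each class, so the SI libraries lay between them. The log2 differences by region were 0.33 ± 0.27, 0.02 ± 0.26 and −0.20 ± 0.36 in these 3 classes (edgeR adjusted p of 0.60, 0.98 and 0.91). The FB-like difference of Nrtn passed without LI replicate 1 (log2 0.77, edgeR adjusted p = 0.040) and was −0.0261 without LI replicate 2.

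Ece1 (chromosome 4, 137862237 to 137965229, plus strand) overlaps the antisense gene Gm13012, and how the counting used strand was not given in the sources used here. Its level in FB-like cells was 32.4 and 46.8 CPM in LI and 54.5 and 55.1 CPM in SI. In SMC-like cells it was 30.1 and 50.8 CPM in LI and 55.1 and 52.3 CPM in SI. Mesothelial-like cells had 21.5 and 42.5 CPM in LI and 35.1 and 44.0 CPM in SI. LI replicate 1 was lowest in all 3 classes, and the SI libraries lay above both LI libraries in FB-like and SMC-like cells, by little over LI replicate 2. No region difference of Ece1 passed (log2 0.63 ± 0.20 in FB-like, 0.57 ± 0.25 in SMC-like and 0.38 ± 0.31 in mesothelial-like cells, edgeR adjusted p of 0.15, 0.34 and 0.75). Without LI replicate 2 it passed in all 3 (log2 0.88, 0.99 and 0.89, edgeR adjusted p of 0.0018, 0.015 and 0.018).

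Ece1 was lower in mesothelial-like than in FB-like cells (log2 −0.41 ± 0.11, edgeR adjusted p = 0.0055), a call lost without SI replicate 1 (adjusted p = 0.082) and with no library block (adjusted p = 0.27). Progenitor-like cells had 1.52 and 6.40 CPM in LI and 4.49 and 5.63 CPM in SI, 9.55-fold below FB-like cells (log2 −3.26 ± 0.14, edgeR adjusted p = 9.2e-13). The converting enzyme was thus measured in the stromal classes that also held Edn3. It was also found in neuron-like cells, at 13.9 to 19.8 CPM on 68 UMIs, where Edn3 had 1 UMI in all.

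**Figure D3:**
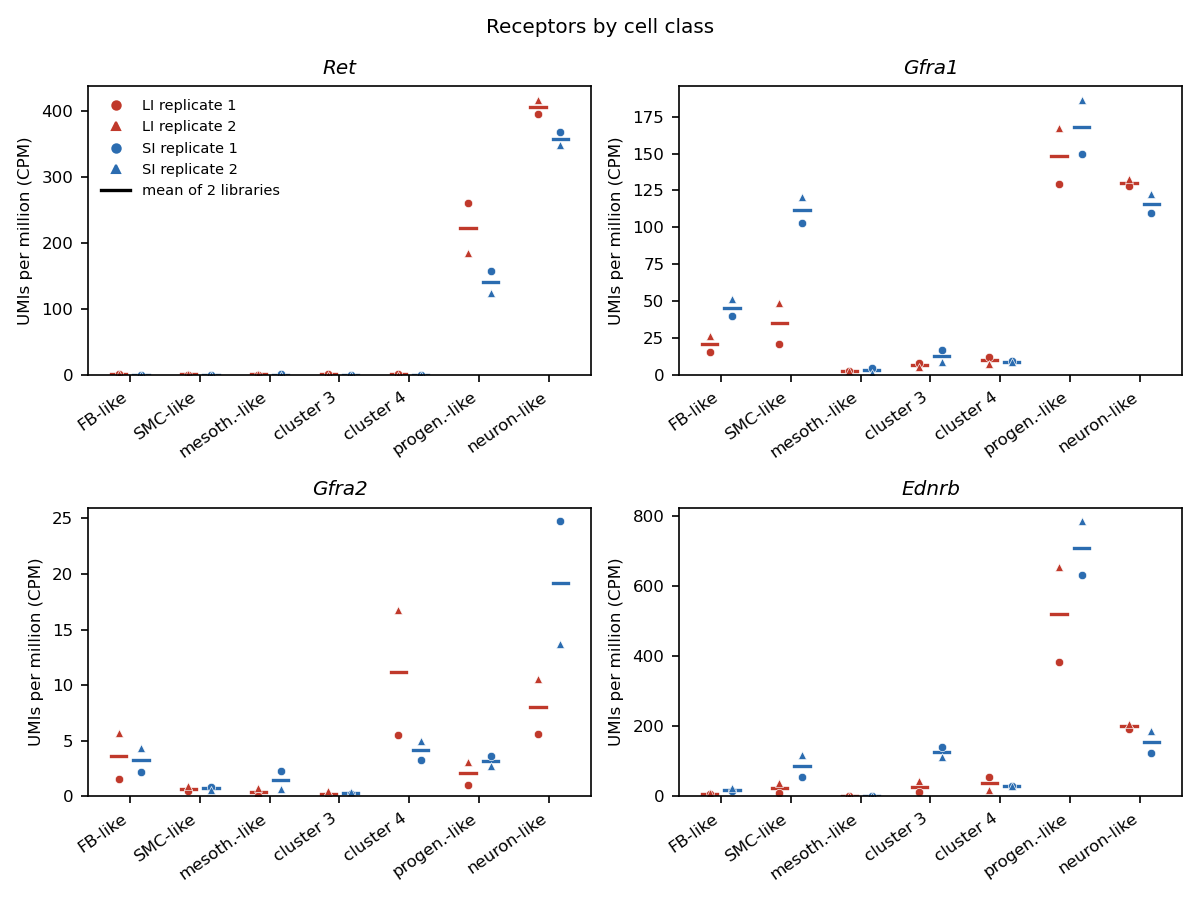
Levels of Gfra1, Gfra2, Ret and Ednrb in CPM by class, with 1 point for each library and a bar at the mean of the 2 libraries of a region. Ret is near 0 outside progenitor-like and neuron-like cells, while Gfra1 and Ednrb are also found in SMC-like and FB-like cells.

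The coreceptor gene Gfra1 (chromosome 19, 58235604 to 58455909, minus strand, with the antisense gene Gm16277) was also stromal. Its level in FB-like cells was 15.7 and 26.1 CPM in LI and 39.7 and 51.5 CPM in SI. In SMC-like cells it was 21.0 and 48.8 CPM in LI and 103 and 120 CPM in SI. Both SI libraries lay above both LI libraries in each class, the reverse of the order of Gdnf and Edn3. Mesothelial-like cells had 2 to 10 Gfra1 UMIs per library.

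Gfra1 was 2.42-fold higher in SI in FB-like cells (log2 difference 1.27 ± 0.25, edgeR adjusted p = 0.022) and 3.56-fold higher in SMC-like cells (log2 1.83 ± 0.35, edgeR adjusted p = 0.039). The first call held in 12 of 12 alternatives and the second in 10 of 10, with a log2 difference of 2.57 in SMC-like cells without LI replicate 2. In cluster 3 the levels were 7.96 and 5.05 CPM in LI and 16.8 and 8.84 CPM in SI (log2 1.16 ± 0.43, edgeR adjusted p = 0.22). The region effect was not shown to differ between SMC-like and FB-like cells (log2 0.56 ± 0.20, edgeR adjusted p = 0.48), in a fit where 0.331% of genes passed and none of the 8.

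At 3000 UMIs per cell, 5.13 and 13.6% of LI SMC-like cells and 25.9 and 30.02% of SI ones had a Gfra1 UMI, with 0.391 to 1.31% in mesothelial-like cells as the level of a class nearly without it. Before thinning these SMC-like shares were 7.70 and 28.2% in LI and 53.3 and 59.2% in SI, at median depths of 3986 and 8498 UMIs in LI and 7911 and 7883 UMIs in SI. SMC markers summed to 1642 and 5056 CPM in LI SMC-like cells and to 5318 and 11250 CPM in SI ones. In FB-like cells the same 12 markers summed to 832 and 1367 CPM in LI and to 1473 and 2410 CPM in SI, so they moved with Gfra1 and Ednrb by library. The 10 progenitor markers had the same order of regions, with sums of 34.7 and 41.8 CPM in LI and 74.9 and 85.6 CPM in SI in FB-like cells, where Cdh19 had no UMI and 2 of 10 were in at least 10% of cells. In SMC-like cells they summed to 26.5 and 36.5 CPM in LI and 45.6 and 45.6 CPM in SI, and in cluster 3 to 40.3 and 40.7 CPM in LI and 48.2 and 75.03 CPM in SI. The part of either list in the region differences of Gfra1 and Ednrb was not tested.

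Gfra1 was higher in SMC-like than in FB-like cells (log2 1.10 ± 0.27, edgeR adjusted p = 0.011), but the call was lost without LI replicate 2 (adjusted p = 0.070), without SI replicate 1 (adjusted p = 0.13) and with no library block (adjusted p = 0.17). It was lower in cluster 3 (log2 −1.75) and cluster 4 (log2 −1.87) than in FB-like cells, with edgeR adjusted p of 0.0011 and 0.0016.

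Ednrb (chromosome 14, 103814625 to 103844402, minus strand), the endothelin receptor gene, was measured in stroma as well as in neural cells. In SMC-like cells its level was 9.98 and 38.6 CPM in LI and 53.8 and 117 CPM in SI. In FB-like cells it was 5.96 and 9.72 CPM in LI and 14.1 and 23.9 CPM in SI. In cluster 3 it was 11.2 and 43.9 CPM in LI and 139 and 112 CPM in SI. The SI libraries lay above the LI libraries in all 3, with a wide spread within each region, and mesothelial-like cells held 1 to 3 UMIs per library.

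The region difference of Ednrb passed in FB-like cells (2.67-fold higher in SI, log2 1.42 ± 0.31, edgeR adjusted p = 0.034) and in cluster 3 (4.72-fold higher, log2 2.24 ± 0.43, edgeR adjusted p = 0.031). In SMC-like cells it missed the threshold (log2 1.96 ± 0.58, edgeR adjusted p = 0.15), and passed without LI replicate 2 (log2 3.26, adjusted p = 0.0020) and without SI replicate 1 (log2 2.42, adjusted p = 0.0038). The FB-like call was lost without SI replicate 2 (log2 1.007, edgeR adjusted p = 0.073) and with equal numbers of cells from each FB-like cluster (log2 1.22, adjusted p = 0.12). The cluster 3 call was lost in DESeq2 (adjusted p = 0.13), and its difference was 3.56 without LI replicate 2.

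The Ednrb levels of the 2 FB-like clusters are given with no test of region within or between them. Cluster 1 had 5.47 and 6.38 CPM in LI and 4.36 and 6.54 CPM in SI, so its regions overlapped. Cluster 2, the cycling one, had 6.68 and 15.4 CPM in LI and 23.3 and 51.5 CPM in SI. Both SI libraries lay above both LI libraries in cluster 2. Gfra1 levels of both SI libraries lay above those of LI in both clusters, at 19.5 and 25.8 against 33.96 and 48.8 CPM in cluster 1 and 10.2 and 26.7 against 45.1 and 55.7 CPM in cluster 2.

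Between classes, Ednrb was 3.83-fold higher in SMC-like than in FB-like cells (log2 1.94 ± 0.33, edgeR adjusted p = 0.00061), and 3 of the 8 genes passed in this comparison, where 10.1% of all 12329 genes did. The call was lost when clusters 3 and 4 were counted as FB-like (log2 0.81, edgeR adjusted p = 0.14). Cluster 3 too was above FB-like cells (log2 2.55, edgeR adjusted p = 0.00018). Pericyte markers in cluster 3 summed to 29.98 and 71.4 CPM in LI and to 94.6 and 255 CPM in SI, with no UMI of Higd1b among the 6, and their part in the Ednrb values of the cluster was not tested.

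Gfra2 (chromosome 14, 70890120 to 70979838, plus strand) encodes the coreceptor that neurturin prefers. In FB-like cells it was at 1.54 and 5.65 CPM in LI and 2.18 and 4.37 CPM in SI. Its regions overlapped (log2 −0.02 ± 0.52). It was 4.97-fold lower in SMC-like than in FB-like cells (log2 −2.31, edgeR adjusted p = 0.00029). In cluster 4 it was higher than in FB-like cells (log2 1.10, edgeR adjusted p = 0.032), a call lost without LI replicate 1 (adjusted p = 0.12), without LI replicate 2 (adjusted p = 0.32) and with no library block (adjusted p = 0.17).

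**Figure D4:**
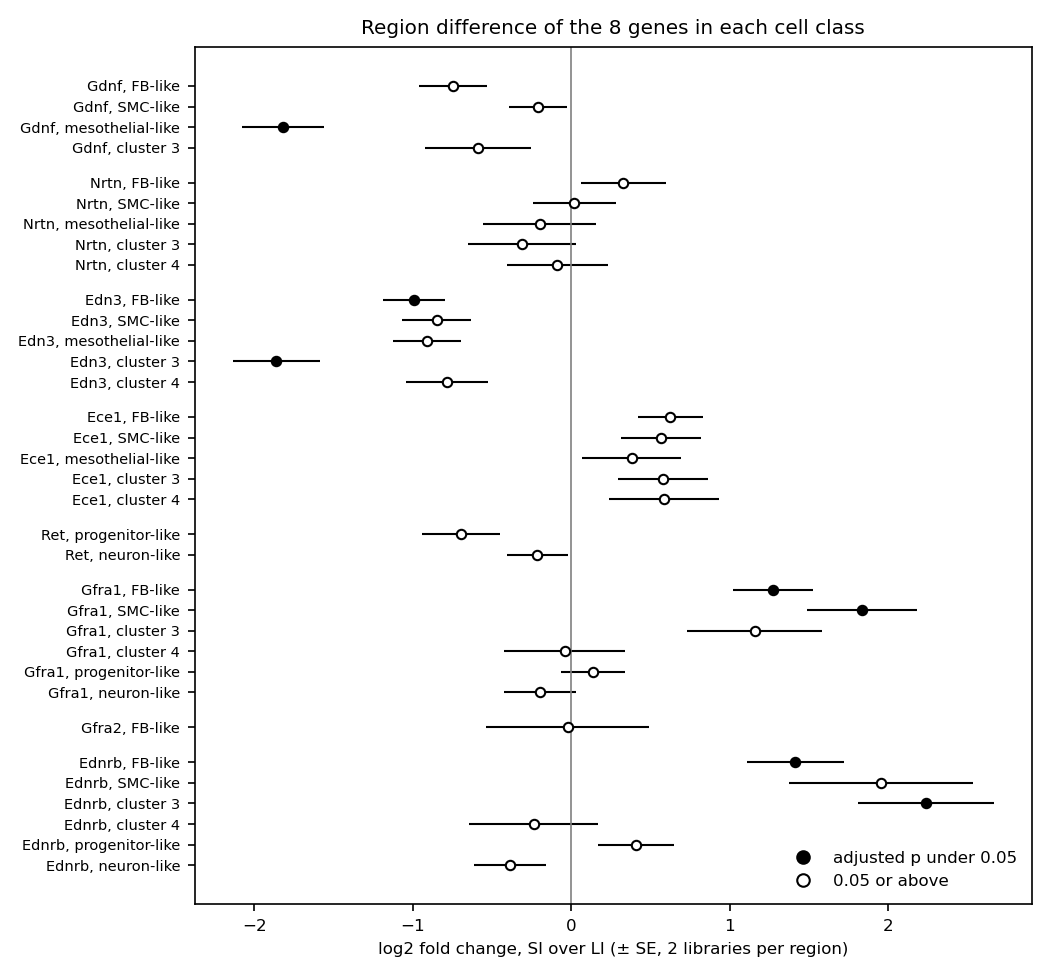
Log2 difference of SI over LI for each gene and class, with the standard error of the edgeR fit as bars, filled points where the adjusted p was under 0.05, and genes with fewer than 100 UMIs in a class left out. Gdnf and Edn3 lie below 0 and Gfra1 and Ednrb above 0 in the FB-like and SMC-like classes, and no gene passes in progenitor-like or neuron-like cells.

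Ret (chromosome 6, 118151745 to 118197718, minus strand), the signalling receptor of the GDNF family, was a neural transcript here. FB-like cells held 9, 10, 4 and 0 Ret UMIs in the 4 libraries, and at 3000 UMIs per cell 0.200, 0.180, 0.0540 and 0% of them had one (0 of 1861 cells allows, at 3 counts of the total, up to 0.161% of cells with a UMI). In progenitor-like cells the Ret level was 260 and 184 CPM in LI and 158 and 124 CPM in SI. In neuron-like cells it was 395 and 417 CPM in LI and 367 and 349 CPM in SI. Both LI libraries lay above both SI libraries in each neural class, by less in neuron-like cells.

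Ret was 1.93-fold higher in neuron-like than in progenitor-like cells (log2 0.95 ± 0.16, edgeR adjusted p = 4.4e-05), where 55.3% of 12329 genes passed, and the call held in 11 of 11 alternatives. Against FB-like cells, progenitor-like cells had log2 8.90 ± 0.26 more Ret (edgeR adjusted p = 4.4e-15), in a comparison where 56.8% of genes passed. Gfra1 (log2 2.43 ± 0.28, edgeR adjusted p = 6.5e-07) and Ednrb (log2 5.70 ± 0.36, edgeR adjusted p = 1.5e-10) were likewise higher in progenitor-like cells. The ligand genes Gdnf, Edn3 and Nrtn and the enzyme gene Ece1 were lower there, so 7 of the 8 genes passed, and Gfra2 did not.

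In progenitor-like cells the region difference of Ret did not pass (log2 −0.69 ± 0.24, unadjusted p = 0.018 and adjusted p = 0.42 in edgeR), and none of the 5 testable genes did, against 0.497% of 10456 genes. Without LI replicate 2 the adjusted p was 0.00031 (log2 −0.97). Stmn2, the neuronal gene used to mark neuron-like cells, had 26.9 and 18.3 CPM in LI progenitor-like cells and 1.40 and 2.94 CPM in SI ones, and was lower in SI (log2 −3.35 ± 0.42, edgeR adjusted p = 0.018). The 14 neuron markers summed to 1584 and 1222 CPM in LI progenitor-like cells and to 848 and 579 CPM in SI ones, an order like that of Ret. The 10 progenitor markers went the other way, with 644 and 999 CPM in LI and 1184 and 1445 CPM in SI. When progenitor-like and neuron-like cells were put in 1 sum, the Ret difference was log2 −0.48 (edgeR adjusted p = 0.58). The part of the neuronal transcripts in the Ret values was not tested.

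Ednrb was highest in progenitor-like cells, at 383 and 654 CPM in LI and 630 and 784 CPM in SI. Neuron-like cells had 192 and 207 CPM in LI and 125 and 187 CPM in SI. All 4 progenitor-like values lay above all 4 neuron-like values, and Ednrb was 4.20-fold lower in neuron-like cells (log2 −2.07 ± 0.34, edgeR adjusted p = 4.1e-05), which held in 11 of 11 alternatives. By region the log2 difference was 0.41 ± 0.24 in progenitor-like cells and −0.38 ± 0.23 in neuron-like cells, and neither passed (edgeR adjusted p of 0.78 in both). Without LI replicate 2 the progenitor-like difference of Ednrb passed (log2 0.80, edgeR adjusted p = 0.0052). In neuron-like cells none of the 5 testable genes passed by region, against 0.588% of 8839 genes.

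Gfra1 differed less between the neural classes. Its level was 129 and 167 CPM in LI and 149 and 187 CPM in SI in progenitor-like cells, and 128 and 133 CPM in LI and 110 and 122 CPM in SI in neuron-like cells. The classes overlapped, and the difference did not pass (log2 −0.68 ± 0.32, edgeR adjusted p = 0.081). It passed in 2 of 11 alternatives, with log2 values from −0.70 to −0.46 over all 11. Gfra2 was at 1.02 to 3.65 CPM in progenitor-like and 5.56 to 24.7 CPM in neuron-like cells, and Ece1 at 13.9 to 19.8 CPM in neuron-like cells. Both passed as higher in neuron-like cells (edgeR adjusted p of 0.00020 and 3.4e-06) on fewer than 100 UMIs in either class. The region effects on Ret, Ednrb and Gfra1 were not shown to differ between the neural classes (log2 0.46 ± 0.20, −0.69 ± 0.32 and −0.21 ± 0.26, edgeR adjusted p of 0.52, 0.59 and 0.92), in a fit where 0.247% of genes passed. With no filter on low counts the Ednrb difference passed (log2 −0.70, edgeR adjusted p = 0.0079), and it was log2 −1.13 without LI replicate 2 (adjusted p = 0.33).

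In single cells thinned to 3000 UMIs, a Ret UMI was found in 56.5 and 36.6% of LI and 41.5 and 25.9% of SI progenitor-like cells, and an Ednrb UMI in 67.9 and 86.3% of LI and 81.7 and 87.4% of SI ones. Among progenitor-like cells, 38.7 and 30.2% in LI and 32.4 and 23.3% in SI had a UMI of both Ret and Ednrb, close to the product of the separate shares in each library. Cells with Ednrb alone made up 29.2 and 56.1% in LI and 49.4 and 64.0% in SI, and cells with Ret alone 17.9 and 6.34% in LI and 9.13 and 2.52% in SI. LI replicate 1 had the most cells with Ret alone and the fewest with Ednrb alone, and SI replicate 2 the reverse.

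Neuron-like cells had the opposite balance. Cells with Ret alone made up 39.0 and 50.0% in LI and 44.7 and 33.3% in SI, and those with Ednrb alone 9.76 and 3.57% in LI and 11.8 and 10.2% in SI. Both genes were found in 22.0 and 30.4% in LI and 13.2 and 17.6% in SI. With 41 to 108 cells per library the intervals were wide, for example 25.7 to 54.3% for Ret alone in LI replicate 1. Before thinning, 62.5 to 89.7% of progenitor-like cells had a Ret UMI and 93.7 to 100% an Ednrb UMI, so a cell without a UMI at 3000 UMIs is not a cell without the transcript.

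**Figure D5:**
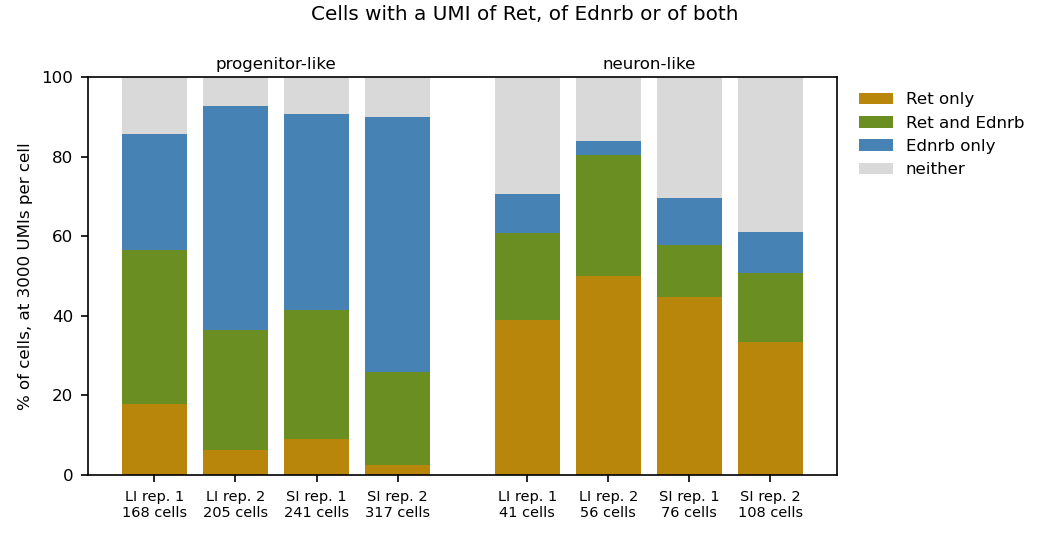
Percent of progenitor-like and of neuron-like cells of each library with a UMI of Ret and Ednrb, of Ret alone, of Ednrb alone or of neither, after thinning to 3000 UMIs per cell. Ednrb alone is found in 29.2 to 64.0% of progenitor-like and 3.57 to 11.8% of neuron-like cells.

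Other genes of these pathways were read from a list of 22 genes around GDNF (other ligands, coreceptors, adaptors and targets) and one of 14 around endothelin (other ligands, EDNRA, proteases and phospholipase C). In FB-like cells, 2 of the 19 GDNF genes tested and 2 of the 12 endothelin genes tested passed by region, against 3.75% of all genes, with median log2 differences of −0.06 and −0.05 against 0.01 over all genes. Etv5, a transcription factor gene that responds to receptor tyrosine kinases, was lower in SI (23.7 and 16.5 CPM against 8.45 and 7.25 CPM, log2 −1.20, edgeR adjusted p = 0.030), a call lost without SI replicate 2 (adjusted p = 0.071) and with clusters 3 and 4 counted as FB-like (adjusted p = 0.075). Plcb1, a phospholipase C gene, was higher (6.78 and 10.0 CPM against 15.9 and 25.5 CPM, log2 1.44, edgeR adjusted p = 0.020). Pcsk5, a proprotein convertase gene, was lower (log2 −1.15, edgeR adjusted p = 0.024, and adjusted p = 0.083 without SI replicate 2). Dok4, an adaptor gene of RET, was higher (log2 0.93, edgeR adjusted p = 0.043), a call lost without SI replicate 1 (adjusted p = 0.22), without SI replicate 2 (adjusted p = 0.051) and with clusters 3 and 4 counted as FB-like (adjusted p = 0.091).

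In SMC-like cells 4 of 19 GDNF genes were lower in SI and none higher, where 2.72% of all genes passed, with a median log2 difference of −0.28 against 0.01 over all genes. Etv4 had 21.7 and 6.02 CPM in LI and 1.28 and 0.451 CPM in SI (log2 −3.88, edgeR adjusted p = 0.039), from −2.69 without LI replicate 1 and −3.24 without SI replicate 2 to −4.57 without LI replicate 2 and −4.72 without SI replicate 1. Etv5 had 22.6 and 12.1 CPM in LI and 3.28 and 1.69 CPM in SI (log2 −2.66, edgeR adjusted p = 0.023). Gfra3, the coreceptor gene of artemin, passed on 8 and 16 UMIs in LI and 1 and 1 in SI, and its call was lost in DESeq2 (adjusted p = 0.11) and without LI replicate 1 (adjusted p = 0.074), SI replicate 1 (adjusted p = 0.068) or SI replicate 2 (adjusted p = 0.16) in edgeR. Pcsk5 was the 1 of 11 endothelin genes that passed (23.8 and 16.8 CPM against 4.88 and 4.56 CPM, log2 −1.94, edgeR adjusted p = 0.011). It was also the 1 of 9 that passed in cluster 3 (log2 −2.15, edgeR adjusted p = 0.0044), where none of 17 GDNF genes did and 2.82% of all genes passed.

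Mesothelial-like cells held the other endothelin ligands as well. Edn1 was at 121 and 25.7 CPM in LI and 21.4 and 7.65 CPM in SI, and Edn2 at 8.28 and 42.9 CPM in LI and 23.7 and 22.3 CPM in SI. Both were above FB-like cells (log2 1.84 and 3.69, edgeR adjusted p of 0.00058 and 2.8e-07), and Edn1 was at log2 1.25 without LI replicate 1. Of 12 endothelin genes 5 were higher there and none lower, a share near the 39.5% of all genes that passed. LI replicate 1 stood apart with the highest Edn1 and the lowest Edn2. By region 1 of 11 endothelin genes (Plcb1, log2 1.49, edgeR adjusted p = 0.036) and none of 16 GDNF genes passed in this class, against 1.10% of all genes. The Plcb1 call was lost in edgeR without SI replicate 2 (adjusted p = 0.064) and in thinned sums (adjusted p = 0.060). In cluster 4 none of 18 and 9 genes passed by region, where 0.533% of all genes did.

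In the neural classes few list genes differed by region. None of the 16 GDNF and 9 endothelin genes tested passed in progenitor-like cells, and in neuron-like cells 1 of 14 and none of 5 did, where 0.497% and 0.588% of all genes passed. That gene was Gas1, whose product resembles GFRα proteins, with 8.35 and 15.4 CPM in LI and 49.5 and 45.6 CPM in SI (log2 1.80, edgeR adjusted p = 0.018). The Gas1 call was lost in 6 of 12 alternatives, among them DESeq2 (adjusted p = 0.45) and, in edgeR, without SI replicate 1 (adjusted p = 0.13) or SI replicate 2 (adjusted p = 0.11), and its log2 difference was 2.46 without LI replicate 2. Between neuron-like and progenitor-like cells, 4 of 18 GDNF genes were higher and 7 lower, and 3 of 12 endothelin genes were higher and 3 lower, shares near the 55.3% of all genes that passed. Lrig3, a leucine-rich repeat membrane protein gene, was lower in neuron-like cells (log2 −2.74, edgeR adjusted p = 3.4e-07), and Ednra, the other endothelin receptor gene, was lower too (log2 −2.09, edgeR adjusted p = 0.0037), with adjusted p = 0.053 without LI replicate 2 and a log2 difference of −3.02 without SI replicate 1. Dok4 was higher (log2 2.61, edgeR adjusted p = 0.00012), and Lrig1 (log2 −2.27) and Plcb1 (log2 −1.30) were lower. In edgeR the Lrig1 call was lost in thinned sums (adjusted p = 0.31) and without SI replicate 2 (adjusted p = 0.11), and the Plcb1 call in thinned sums (adjusted p = 0.25), without SI replicate 1 (adjusted p = 0.076) and with no library block (adjusted p = 0.13). Ecel1, a neuronal relative of Ece1, was found at 2.78 to 10.9 CPM in neuron-like cells and had 1 UMI among all progenitor-like cells.

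The genes most like each ligand were read from the correlation of log2(CPM + 5) over 33 cluster sums of 9 non-neural clusters and 7429 genes. For Edn3 these were Bdh2 (r = 0.887), Hdac8, Zfand6, Gprc5c and Bcl2l1 (r = 0.854). For Nrtn they were Eya1 (r = 0.762), Crym, Foxd1, Uncx and Spock2 (r = 0.735), and for Gdnf Tlk2 (r = 0.758), Daam1, Usp46, Mdm2 and Ralgps2 (r = 0.735). The sums of 1 library have its depth and embryos in common, so these values describe the libraries and carry no test.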

How the data were processed

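Raw UMI counts per gene and barcode were deposited without normalization. The authors had counted them with Cell Ranger 3.1.0 on mm10, and named Seurat 3 for later steps, per the labels. The 10x kit was either the 3′ or the 5′ version, and the version of each library was not given in the sources used here, so kit and region cannot be told apart. Stage and region follow the sample titles, although other fields name adult or colonic tissue. Library replicates were taken as separate samples, and with 2 a region an exact permutation test could not pass, so edgeR's test across all genes was used.

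Cells with at least 1000 genes and under 10% mitochondrial UMIs were kept. Scrublet's automatic threshold marked 1 to 6 cells, so the highest scores were removed at 0.8% per 1000 cells (183 to 348 cells). Anchor integration in Seurat 5.3.0 on 1958 genes, without the 8 genes, the pathway lists and the Hox genes, with 30 components and resolution 0.3, gave 11 clusters, and differences from the study may come from these rebuilt names. A class needed 3 of its markers among the 10 leading genes or, for FB-like, 3 FB markers in 10% of cells, and clusters with another class's marker stayed unnamed. Counts were summed per library and class (359448 to 17867806 UMIs) and tested in edgeR 4.0.16 (TMM, filterByExpr, quasi-likelihood, adjusted p under 0.05) within R 4.3.3. Class comparisons and interactions used library as a block. Log2 differences are SI over LI, or the first class over the second. Shares used cells thinned to 3000 UMIs, which left out 920 and 138 LI and 76 and 103 SI cells, with Wilson intervals. DESeq2 1.42.0 and the other alternatives are given under the dependence on processing. The members and lists were chosen with earlier results of these data known. The naming rule took all 8 genes, the 3 list genes with the largest passing differences per comparison, and 5 genes like each ligand. The text leaves out the list genes it took in comparisons of stromal classes or of progenitor-like with FB-like cells, except Edn1 and Edn2. Python 3.11.15, scanpy 1.11.5, NumPy 2.4.6, SciPy 1.17.1, pandas 2.3.3 and matplotlib 3.10.9 were used, with GENCODE vM21 positions.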

Additional observations from a re-analysis of the deposited data

Results flagged for a closer look

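Several region effects differed between classes in a test of the difference itself, given here as the second class named subtracted from the first, with no cause tested. Between SMC-like and FB-like cells these were Etv4 (log2 −2.37 ± 0.39, edgeR adjusted p = 0.0043), Etv5 (−1.46 ± 0.30, edgeR adjusted p = 0.033) and Gas1 (0.65 ± 0.11, edgeR adjusted p = 0.0043). Between mesothelial-like and FB-like cells they were Gdnf (−1.01 ± 0.24, edgeR adjusted p = 0.026) and Lrig1 (−1.11 ± 0.26, edgeR adjusted p = 0.024). These calls were lost under some alternatives: without LI replicate 1 for Etv4 (edgeR adjusted p = 0.16), Etv5 (adjusted p = 0.27), Gas1 (adjusted p = 0.20), Gdnf (adjusted p = 0.18) and Lrig1 (adjusted p = 0.12), and without SI replicate 2 for Etv4 (edgeR adjusted p = 0.12), Etv5 (adjusted p = 1.0), Gas1 (adjusted p = 0.12), Gdnf (adjusted p = 0.45) and Lrig1 (adjusted p = 0.20). Gdnf and Lrig1 were also lost in edgeR without LI replicate 2 (adjusted p = 0.056 and adjusted p = 0.10), and Etv5, Gdnf and Lrig1 in DESeq2 (adjusted p = 0.35, 0.26 and 0.070). In edgeR, Etv5 and Lrig1 were lost in thinned sums (adjusted p = 0.084 and 0.099), Etv5 with doublets kept (adjusted p = 0.063) and Lrig1 with clusters 3 and 4 counted as FB-like (adjusted p = 0.057). Between neuron-like and progenitor-like cells it was Stmn2 (3.40 ± 0.43, edgeR adjusted p = 0.00051). Stmn2 is one of the markers that named the neuron-like class, so its test is not independent of the classes and is given as a description only. The difference was 0.17 when cells were assigned by Sox10 and Stmn2 UMIs, which fixes Stmn2 in the assignment.

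Outside the comparisons, Nrtn stood at 100.5 CPM (122 UMIs in 116 cells) in cluster 8 of SI replicate 2. That cluster (379 cells, unnamed, led by Foxd1 and Shisa3, with the gastric marker Barx1 among its leading genes) had 18.0 and 16.0 CPM in LI and 3.103 CPM in SI replicate 1, the last on 1 UMI in 24 cells.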

How the results depend on the processing

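The alternatives were another normalization, DESeq2, no filter on low counts, thinned sums, doublets kept, other assignments of cells, no library block, each library left out, and the replicate number as a block. Some, such as the fits with clusters 3 and 4, were chosen after seeing the data. Of the gene values under an alternative, 1390 kept their direction and their side of the threshold, 123 lost the call, 44 gained it and 32 changed sign, and the cause was not tested. With 2 libraries a region, the library left out decides many calls, and leaving one out leaves a lone library that is assumed to vary like the others. Of 48 shares of cells with a UMI, 40 left their Wilson interval at 2000 in place of 3000 UMIs per cell, a setting that reads fewer UMIs of each cell. Gene counts under 100 UMIs limit Gfra2, Ece1 and the ligands in neural cells.

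Numbers of genes past the threshold moved as follows. By region in FB-like cells there were 496, and 1326 with no filter, 2263 with the replicate block and 529 to 1989 with 1 library left out. SMC-like cells had 344, and 527 in DESeq2, 1358 with no filter, 1820 with the block and 280 to 1391 with 1 left out. Mesothelial-like cells had 117, and 405, 769 and 119 to 1281 with no filter, block and 1 left out. Cluster 3 had 316, and 1130, 946 and 340 to 1346 in the same order. Cluster 4 had 57, and 230, 147 and 92 to 374, with 30 in thinned sums. Progenitor-like cells had 52, and 337, 549 and 25 to 1313, with 95 in DESeq2. Neuron-like cells had 52, and 125, 162 and 34 to 402, with 27 in DESeq2 and 6 in thinned sums. With no library block the class comparisons gave 281 in place of 1244 (SMC-like against FB-like), 778 in place of 2442 (cluster 3), 960 in place of 2584 (cluster 4), 2840 in place of 4872 (mesothelial-like against FB-like) and 2815 in place of 4800 (mesothelial-like against SMC-like), and cluster 3 gave 1610 in thinned sums. With 1 left out these 5 gave 549 to 1315, 1214 to 2528, 1509 to 2114, 3349 to 4700 and 3353 to 4616. The interactions of region gave 43 for SMC-like against FB-like (DESeq2 6, no filter 197, 1 left out 6 to 110), 309 for mesothelial-like against FB-like (175, 687 and 83 to 293) and 32 for neuron-like against progenitor-like (no filter 169, 1 left out 14 to 45).

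Same-numbered SI and LI libraries deviated together with a correlation of 0.14 to 0.37 by class over 2 pairs, and no label says what a number marks. With the replicate block Gdnf (log2 −0.77) and Ece1 (0.64) passed by region in FB-like cells, Edn3 (−0.82), Ednrb (2.11) and Ece1 (0.60) in SMC-like cells, Edn3 (−0.91) in mesothelial-like cells, Gfra1 (1.06) in cluster 3 and Ret (−0.68) in progenitor-like cells, and no call of the 8 genes was lost.

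Changes of sign were seen only for values that had not passed, except Stmn2 in progenitor-like cells, which was 0.43 by region with neuron-like cells in 1 sum. That sum also gave Ednrb 0.26 and Gfra1 0.0354, in place of the neuron-like values, and thinned sums gave Gfra1 0.019. Ece1 of SMC-like over FB-like cells was 0.0892 with clusters 3 and 4 counted as FB-like and 0.0008 with no library block. Edn3 was −0.0143 in the interaction of mesothelial-like and FB-like cells with doublets kept, where Gfra1 in cluster 4 was 0.15. Gfra2 in FB-like cells was 0.006 in DESeq2, 0.0425 with doublets kept, 0.0931 with the replicate block and 0.27 in thinned sums. Thinned sums gave Nrtn −0.0152 in SMC-like and 0.059 in mesothelial-like cells. With 1 library left out, log2 values ran from −0.0347 to 0.89 for Ece1 by region in mesothelial-like cells, −0.0559 to 0.0221 for Ece1 in SMC-like and −0.12 to 0.0094 in cluster 3 against FB-like cells, and −0.15 to 0.0872 in its interaction. By region they ran from −0.865 to 0.68 for Ednrb and −0.43 to 0.35 for Gfra1 in cluster 4, −0.0002 to 0.29 for Gfra1 in progenitor-like cells and −0.62 to 1.21 for Gfra2 in FB-like cells. For Nrtn they ran from −0.0261 to 0.77 in FB-like, −0.27 to 0.36 in SMC-like and −0.61 to 0.36 in mesothelial-like cells, −0.78 to 0.14 in cluster 3, −0.33 to 0.12 in cluster 4, and −0.0868 to 0.135 for mesothelial-like over FB-like cells.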

Other observations

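Cluster 8 also held a wide region gap of Edn3, at 203 and 177 CPM in LI and 15.5 and 14.0 CPM in SI, on 79 and 177 UMIs in LI and 5 and 17 UMIs in SI and with no test. SI replicate 1 held 24 cells of this cluster. Gdnf there was at 74.4 and 31.0 CPM in LI and 3.103 and 46.9 CPM in SI, the former on 1 UMI, so its regions overlapped.

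LI holds both cecum and colon, and its FB-like cells were split by UMIs of genes that mark position, as a description. Cells with a Hoxa13 or Hoxd13 UMI (158 and 143 cells) had Edn3 at 69.5 and 74.8 CPM, against 127 and 100 CPM in the others. Gdnf was at 47.0 and 78.6 CPM in the first and 75.4 and 82.8 CPM in the others. The cells with such a UMI were deeper (medians of 6295.5 and 14014 UMIs against 4007.5 and 8280). Cells with a Pitx1 UMI had Ece1 at 48.2 and 58.7 CPM against 28.3 and 43.2 CPM without, and Edn3 at 121 and 78.3 CPM against 122 and 103 CPM. Ece1 had a like gap in the Hoxa13 or Hoxd13 split, at 48.9 and 60.1 CPM with such a UMI against 30.8 and 44.8 CPM without.

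Gdnf and Edn3 were found in the same FB-like cell, at 3000 UMIs, in 6.00 and 5.35% of LI and 0.917 and 2.69% of SI cells. Among LI cells with a Gdnf UMI, 33.5 and 25.1% had an Edn3 UMI, against 28.8 and 24.0% of the others, and among SI cells 10.0 and 20.4% against 12.6 and 14.9%.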
